A study of Mus musculus with 12 samples.

Results

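The cytosolic ribosomal protein genes encode the protein part of the ribosome that translates nuclear-encoded mRNA. Their members were chosen by name, as rows whose symbol is Rpl or Rps with a number, or Rplp0, Rplp1, Rplp2 or Rpsa, leaving out names that mark pseudogenes and the Rps6k kinases. Of 55335 genes in the table, 88 carried such a name, and 85 of them reached 1 FPKM in 3 or more of the 12 libraries, the limit for testing, as did 12622 genes in all. FPKM counts fragments per unit of gene length and of library size, so levels of different genes can be compared in it where their reads are not shared with other rows. By name, the 85 members were 47 of the large subunit, 35 of the small subunit and the 3 stalk proteins Rplp0, Rplp1 and Rplp2. Rows with a pseudogene type and paralogs, given below, are counted with the subunit of their name. The 3 named genes that failed were Rpl10l and Rps12l1, listed at 0 FPKM in all 12 libraries, and Rpl3l, with a mean of 0.0157 FPKM. Of the 85 members, Rps3a3 with 2.71 FPKM and Rpl39l with 3.08 FPKM had the lowest means.

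The libraries came from bone marrow-derived macrophages (BMDMs), made in culture from the marrow of wild-type and Nlrp3-/- mice. Each genotype was left untreated (control) or given LPS+ATP, with 3 libraries in each of the 4 groups. By the sample labels, stimulated cells had LPS for 4 hours and then ATP for 30 minutes, whereas the study's methods give 12 hours and 2 hours. The mice were C57BL/6, aged 8 weeks by the methods, the deletion of Nlrp3 was in the whole body, and marrow cells were cultured with macrophage colony-stimulating factor for 7 days before the adherent cells were taken as BMDMs. The study's methods call its sample sizes numbers of independent replicates, without saying for these libraries whether the 3 of a group came from separate animals or cultures, so the p-values measure the spread between these libraries, which may be technical.

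A ribosome holds 1 copy of most of its proteins, and their genes are among the most highly transcribed in a cell. In vertebrates the mRNAs of these proteins and of several translation factors begin with a C followed by a run of pyrimidines, the 5′ terminal oligopyrimidine (TOP) motif, through which mTORC1 signalling controls their translation together. Paralogs of some members exist, such as Rpl39l for Rpl39, and processed pseudogenes copied from their mRNAs are common in the mouse genome.

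The groups differed in more than Nlrp3. The targeted gene Nlrp3 was listed at 0 in the 6 Nlrp3-/- libraries, and averaged 9.68 FPKM in control and 32.9 FPKM in stimulated wild-type cells. The 6 Nlrp3-/- libraries carried Xist and had the 4 Y-linked genes examined at 0, while the 6 wild-type libraries had Xist near 0 and the Y-linked genes present, so sex and genotype cannot be told apart. By the methods, wild-type mice came from the Shanghai Laboratory Animal Center and Nlrp3-/- mice from Cyagen. Supplier and genotype cannot be told apart either. All 7 macrophage marker genes, found in 8 rows of the table, were present in each group. They summed to 19866 to 21046 FPKM in control and 11262 to 11335 in stimulated wild-type cells, and to 18977 to 19222 and 10580 to 10829 in Nlrp3-/- cells, and 4 of the 8 rows were called lower in Nlrp3-/- than in wild-type cells under each treatment. The 6 fibroblast markers summed to 157 to 162 FPKM in control and 181 to 183 in stimulated wild-type cells, and to 1165 to 1182 in control and 891 to 907 in stimulated Nlrp3-/- cells. The 8 neutrophil and granulocyte precursor markers summed to 331 to 367, 328 to 342, 1782 to 1830 and 703 to 711 FPKM in the same order, with Ly6g under 1 FPKM throughout, and the 4 markers of dividing cells to 35.3 to 36.1, 18.2 to 19.7, 39.2 to 42.5 and 22.2 to 22.9 FPKM. Of the 7 neutrophil and granulocyte precursor rows tested, 6 were called lower and 1 higher with LPS+ATP in wild-type cells. Of all genes, 53.1% and 23.3% were. With LPS+ATP, 3 of the 4 dividing cell markers were called higher and 1 lower in Nlrp3-/- than in wild-type cells. Of all genes, 35.9% and 12.6% were. Of the marker lists of other cells, B cell genes summed to at most 5.11 FPKM, T cell genes to at most 0.0905 and erythroid genes to at most 11.4. These markers moved with the groups compared, and their part in the differences below was not tested. In bulk RNA, fewer cells of a type and less RNA per cell cannot be told apart.

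The start sites are shown first, because the TOP motif is the sequence that these genes are known to share. RefSeq promoter windows on GRCm38.p6, from 250 bases before to 50 after an annotated start, were found for 61 of the 85 members. A run of at least 6 pyrimidines (C or T on the coding strand) that overlapped the 5 bases to either side of the start was present in 30 of the 61 (49.2%), against 20.7% of the 8886 tested genes with a window. Such a run need not cover the start, and where a gene has several listed starts the first was used. C was the base at the start in 34.4% of members and in 14.8% of these genes. In the whole window, on either strand, CCGGAA, the core bound by ETS factors, was found in 52.5% of members against 29.7% of genes, AAGATGGC, a YY1 core, in 8.20% against 5.05%, and TATAAA in 9.84% against 6.97%. A match is a description of the window only, and since the submitters' notes name a later build, GRCm39, the coordinates are those of RefSeq and not of the deposited table. The lines below give the 30 bases from 10 before the start, which is the 11th base, with the longest pyrimidine run near the start in capitals. Rplp2, Rps27 and Rps21 have a run across the start, Rpl10a, Rps15, Rps16 and Rpl13 fell most with LPS+ATP in wild-type cells apart from Rpl3, and Rpl24, Rpl7l1 and Rpl39l did not fall with the others there.
Rplp2 (chr7:141447641-141447670, plus strand): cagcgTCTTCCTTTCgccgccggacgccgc
Rps27 (chr3:90213629-90213658, minus strand): cgctttcgCTCCTTTCCggcggtgacgacc
Rps21 (chr2:180257369-180257398, plus strand): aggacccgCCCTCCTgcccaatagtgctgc
Rpl10a (chr17:28328461-28328490, plus strand): gCCCCCCCagcggccgcaaactgcagcgcc
Rps15 (chr10:80292421-80292450, plus strand): cagagCTCgcgataactgcgcaagcgcagc
Rps16 (chr7:28350679-28350708, plus strand): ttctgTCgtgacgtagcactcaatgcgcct
Rpl13 (chr8:123102340-123102369, plus strand): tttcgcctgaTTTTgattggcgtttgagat
Rpl24 (chr16:55966265-55966294, plus strand): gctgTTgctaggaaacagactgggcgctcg
Rpl7l1 (chr17:46782637-46782666, minus strand): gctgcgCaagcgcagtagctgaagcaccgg
Rpl39l (chr16:10170218-10170247, plus strand): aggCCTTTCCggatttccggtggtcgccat

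The level of the members spread widely, from one gene to another. Over the 12 libraries the mean FPKM of a member ran from 20.9 at the 10th percentile through a median of 80.6 to 231 at the 90th percentile. The highest were Rplp0 (559 FPKM) and Rplp1 (519 FPKM), which form the stalk that recruits translation factors, and Rpl4 (368 FPKM) of the large subunit. The lowest were Rps3a3, Rpl39l and Rpl22l1 (6.94 FPKM). Some members share sequence with other rows, as given below, to unlike degrees, so these levels and ranks hold for the rows as listed. Libraries of a group were close, with a median coefficient of variation over members of 6.70% in wild-type control, 4.21% in wild-type LPS+ATP and 3.39% in Nlrp3-/- LPS+ATP, and the lowest in Nlrp3-/- control. Rps10, Rpl29 and Rps25 varied most, at up to 28.2%, 34.5% and 26.6% within a group.

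Summed over the 85 members, FPKM took a smaller share of each stimulated library than of any control library. The share of all FPKM was 3.33%, 3.49% and 3.64% in wild-type control, and 1.97%, 2.06% and 2.04% in wild-type LPS+ATP. The Nlrp3-/- libraries had 4.18%, 4.11% and 4.19% in control, and 2.88%, 2.85% and 2.91% with LPS+ATP. The 4 groups did not overlap, with wild-type LPS+ATP lowest and Nlrp3-/- control highest. The order of the groups was the same when the 20 highest genes of the table were left out of the total, when the pair of highest members, Rplp0 and Rplp1, was left out, and when the 275 rows of ribosomal protein pseudogenes were added, which held 0.675% ± 0.0316 (SD, n = 3) of the FPKM of wild-type control and 0.377% ± 0.00655 of that of wild-type LPS+ATP.

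**Figure D1:**
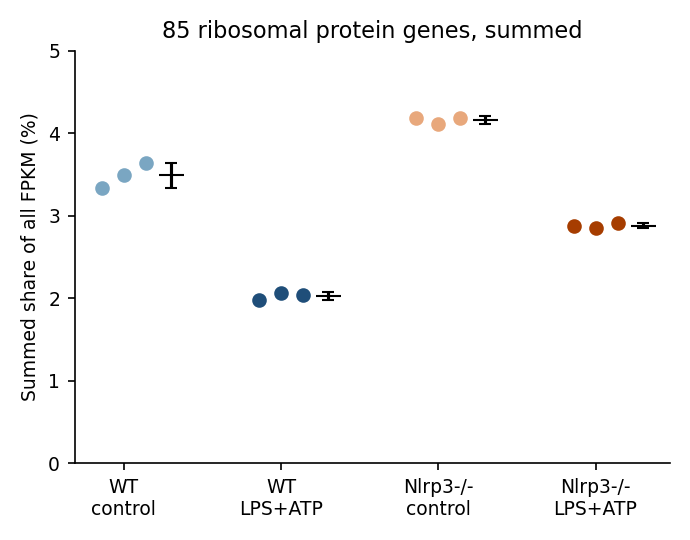
Share of all FPKM (%) taken by the 85 members in each of the 12 libraries. Points are libraries, and the black mark with its bar is the mean and SD of a group (n = 3). Both stimulated groups lie below both control groups, and the Nlrp3-/- group lies above the wild-type group under each treatment.

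The effect of LPS+ATP was compared within each genotype. In wild-type cells 78 of the 85 members (91.8%) fell and 2 rose, where 53.1% of the 12622 genes tested were called lower and 23.3% higher at an adjusted p under 0.05. The median difference was -0.82 on the log2(FPKM + 1) scale for members and -0.25 for all genes tested. Among Nlrp3-/- libraries 81 members (95.3%) fell and 2 rose, against 53.8% of all genes called lower and 20.6% called higher, with medians of -0.61 and -0.24. A difference of at least 1 on this scale was reached by 14 members in wild-type cells, all of them falls, where 19.4% of all genes had such a call in either direction. With Nlrp3-/- 0 members reached it with limma at an adjusted or unadjusted p under 0.05, the largest fall being 0.94, where 14.8% of all genes did. With median-ratio scaling, which sets the median of all genes near 0 (-0.01 in both genotypes), 76 members were lower and 5 higher in wild-type cells, with a median of -0.50, and 69 were lower and 3 higher in Nlrp3-/- cells, with a median of -0.32. Over all genes that scaling gave 4506 lower and 4468 higher in wild-type cells, in place of 6701 and 2940, and 4164 lower and 4114 higher in Nlrp3-/- cells, in place of 6789 and 2594.

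Grouped by name, large subunit, small subunit and stalk members had median differences in wild-type cells of -0.81, -0.85 and -0.80, with 44 of 47, 31 of 35 and 3 of 3 called lower. The 30 members with a pyrimidine run near the start had a median of -0.81, and the 31 with a window but no such run -0.80. Some of the 30 runs end before the start, as in Rpl10a, or begin after it, as in Rps2. This is therefore not a split of members with and without a TOP motif. The same 78 members that fell in wild-type cells fell in Nlrp3-/- cells. The share of all genes called lower in both genotypes was not computed. Across the 85 members, Pearson's r of the difference in wild-type with that in Nlrp3-/- cells, which share no library, was 0.797, given as a description, since members share libraries and some share reads.

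**Figure D2:**
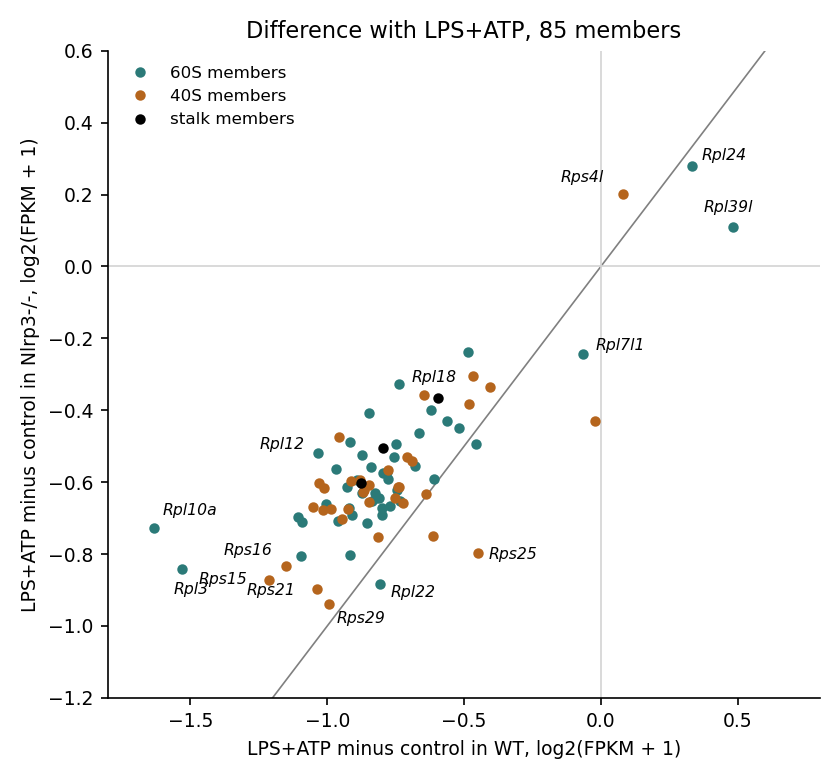
Difference with LPS+ATP of each member in wild-type (x axis) and Nlrp3-/- cells (y axis), both as log2(FPKM + 1) of LPS+ATP minus control. Teal points are large subunit members, brown points small subunit members and black points the stalk, and the grey diagonal marks equal differences. Most members lie above it, at falls that were larger in wild-type cells, and Rpl24, Rpl39l, Rps4l and Rpl7l1 lie apart from most others.

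Rpl10a, a protein of the L1 stalk of the large subunit, fell most in wild-type cells. It was 89.9, 95.2 and 88.6 FPKM in wild-type control and 30.4, 32.2 and 24.2 FPKM with LPS+ATP, and 86.6, 91.8 and 84.9 FPKM in Nlrp3-/- control and 47.1, 54.2 and 57.0 FPKM with LPS+ATP. The control groups of both genotypes overlapped, while the stimulated groups did not. Its difference with LPS+ATP was -1.63 ± 0.0953 (SE, adjusted p = 2.53e-08) in wild-type cells and -0.73 ± 0.0953 (adjusted p = 3.38e-05) in Nlrp3-/- cells. Rpl3, which lies near the peptidyl transferase centre, was 145, 153 and 156 FPKM in wild-type control and 51.3, 51.6 and 52.4 FPKM with LPS+ATP, a fall of 1.53 on this scale (adjusted p = 6.26e-12). Rpl3 in Nlrp3-/- cells went from 159, 153 and 153 FPKM to 83.0, 87.4 and 87.5 FPKM, a fall of 0.84 (adjusted p = 1.51e-09). The next largest falls in wild-type cells were those of Rps15 (-1.21), Rps16 (-1.15) and Rpl13 (-1.11). Rps15 was 347, 380 and 386 FPKM in wild-type control and 157, 162 and 160 FPKM with LPS+ATP.

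In Nlrp3-/- cells the largest falls were those of Rps29 (-0.94), Rps21 (-0.90), Rpl22 (-0.88), Rps15 (-0.87) and Rpl3. Rps29, a zinc-binding protein of the small subunit, was 41.9, 46.1 and 39.7 FPKM in Nlrp3-/- control and 23.0, 20.3 and 21.8 FPKM with LPS+ATP. In wild-type cells it went from 30.5, 33.8 and 43.1 FPKM to 14.8, 15.6 and 22.3 FPKM, a fall of 0.99, and its interaction term, the difference between both falls, was 0.06 ± 0.211 (SE, adjusted p = 0.881). The stalk proteins fell in both genotypes: Rplp0 was 553, 597 and 590 FPKM in wild-type control against 329, 345 and 326 FPKM with LPS+ATP (a fall of 0.80), and 780, 772 and 779 FPKM against 547, 546 and 547 FPKM in Nlrp3-/- cells (a fall of 0.51).

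In wild-type cells 5 members were not called with LPS+ATP, among them Rpl7l1, Rps4l, Rps10 and Rps25. Rps10 and Rps25 spread widely within groups, with a coefficient of variation of 26.4% for Rps10 in wild-type control and 26.6% for Rps25 in Nlrp3-/- control.

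Rpl24, a large subunit protein that forms a bridge to the small subunit, rose in both genotypes. It was 113, 117 and 120 FPKM in wild-type control and 142, 150 and 150 FPKM with LPS+ATP (0.33 ± 0.0438, adjusted p = 3.11e-05). The Nlrp3-/- libraries had 126, 136 and 142 FPKM in control and 163, 160 and 168 FPKM with LPS+ATP (0.28 ± 0.0438, adjusted p = 0.000141). The stimulated groups lay above the controls in both cases. The processed pseudogenes Gm9385 and Gm12254, which are near copies of Rpl24, were also higher with LPS+ATP, Gm9385 at 29.1 and 36.6 FPKM in wild-type control and LPS+ATP. Rpl39l was the other member called higher in wild-type cells, and Rps4l in Nlrp3-/- cells, the latter at a limma adjusted p of 0.0475. Rps4l no longer passed 0.05 in 8 of the 12 limma fits without 1 library. Those were the fits without any one of the stimulated libraries, wild-type control 3 or Nlrp3-/- control 1 (difference of 0.12, adjusted p = 0.198).

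**Figure D3:**
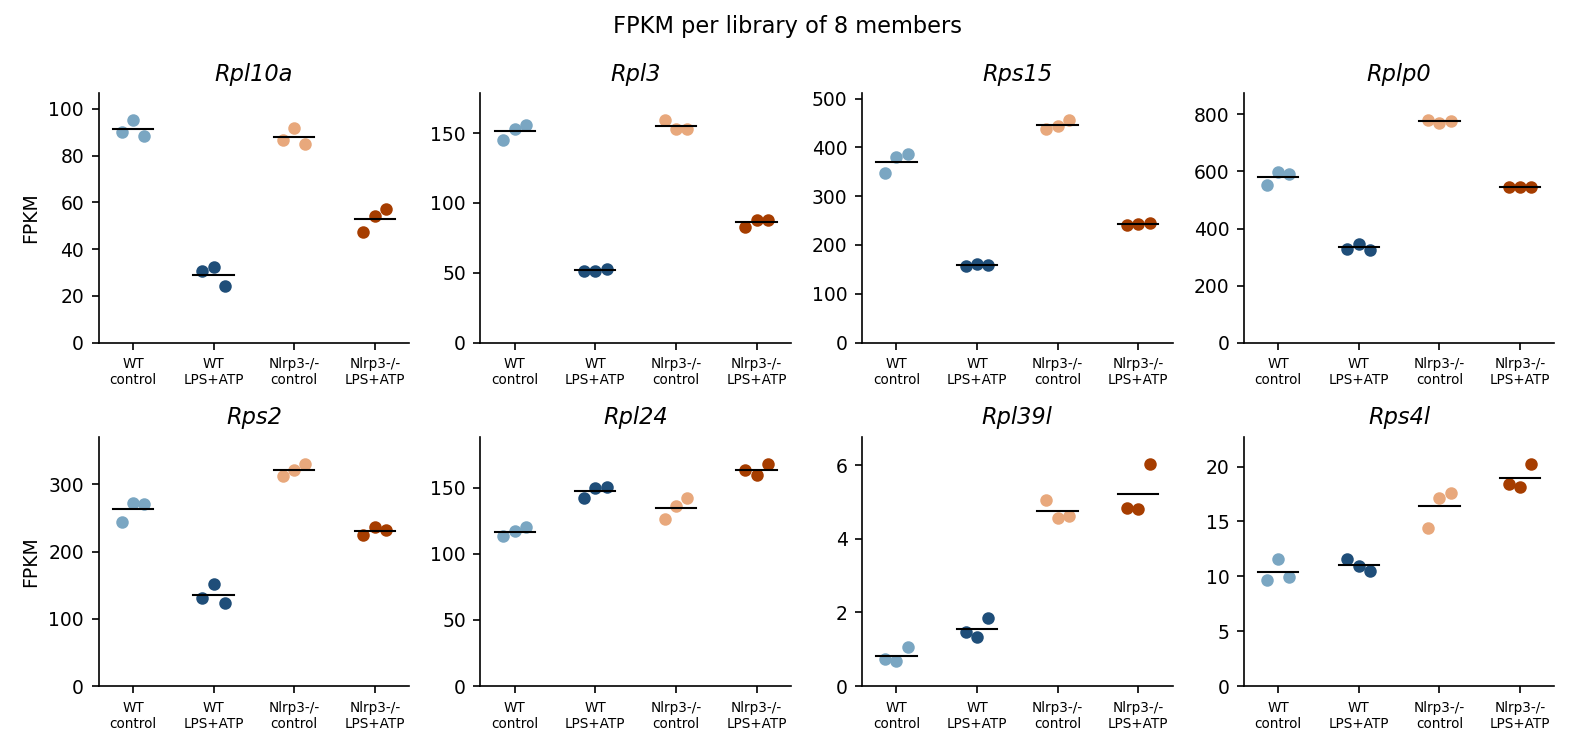
FPKM of 8 members in each of the 12 libraries, with the mean of a group as a line and each axis starting at 0. Rpl10a, Rpl3, Rps15, Rplp0 and Rps2 fell with LPS+ATP in both genotypes, Rpl24 rose in both, and Rpl39l and Rps4l were higher in Nlrp3-/- cells under both treatments.

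The genotypes were compared in control cells and with LPS+ATP. In control cells 64 members (75.3%) were higher in Nlrp3-/- than in wild-type cells and 2 lower, where 33.3% of all genes tested were called higher and 14.5% lower, with a median difference of 0.25 for members and 0.09 for all genes. With median-ratio scaling the count was 26 higher and 4 lower with a median of 0.10, and over all genes 2587 higher and 3230 lower in place of 4203 and 1832. With LPS+ATP, 73 members (85.9%) were higher and 2 lower, among them Rps3a3 (-0.51), against 35.9% and 12.6% of all genes, with medians of 0.49 and 0.11. There median-ratio scaling left 61 higher and 4 lower with a median of 0.30, and gave 2871 higher and 3430 lower over all genes in place of 4531 and 1593. A difference of at least 1 was reached by 1 member, Rpl39l, under each treatment, where 6.71% of all genes in control and 5.05% with LPS+ATP had such a call. Both treatments called 60 members higher in Nlrp3-/- cells, and the share of all genes called higher in both was not computed. Of all 12 fits without 1 library, the lowest count in control was 54 members higher.

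With LPS+ATP the largest genotype differences after Rpl39l were those of Rpl10a (0.85), Rpsa (0.78), Rps2 (0.78) and Rpl12 (0.78). Rpsa, a small subunit protein also known as the laminin receptor, was 124, 121 and 116 FPKM in wild-type and 204, 208 and 209 FPKM in Nlrp3-/- cells with LPS+ATP (adjusted p = 8.94e-09). In control cells it was 236, 252 and 252 FPKM in wild-type and 314, 310 and 321 FPKM in Nlrp3-/- cells (0.35, adjusted p = 4.17e-06). Neither pair of groups overlapped. Rpl12, which sits at the base of the stalk, was 31.7, 31.8 and 31.2 FPKM in wild-type and 56.2, 55.2 and 52.8 FPKM in Nlrp3-/- cells with LPS+ATP, and 62.6, 67.0 and 67.3 FPKM against 82.3, 75.1 and 79.2 FPKM in control. In control cells the largest rises were those of Rpl39l (1.66), Rps4l (0.61), Rps27l (0.48), Rps20 (0.47) and Rps3a1 (0.44). Rpl3 did not pass in control cells (0.03, adjusted p = 0.448) and was lower in Nlrp3-/- cells there with median-ratio scaling (-0.12, adjusted p = 0.0136).

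Chromosome X carries 4 members, Rps4x, Rpl10, Rpl36a and Rpl39. In control cells Rpl36a (0.42), Rpl39 (0.31) and Rps4x (0.23) were higher in Nlrp3-/- cells and Rpl10 was not called (-0.04, adjusted p = 0.334). Rpl10 was 173, 182 and 179 FPKM in wild-type control and 173, 173 and 175 FPKM in Nlrp3-/- control, groups that overlapped, and it was called lower with median-ratio (-0.19), upper-quartile (-0.11) scaling and with scaling that leaves out the 20 highest genes (-0.09). With LPS+ATP the differences were 0.72 for Rpl36a, 0.44 for Rpl39, 0.48 for Rps4x and 0.21 for Rpl10, with all 4 called. The calls of Rpl39 (0.16) and Rps4x (0.07) in control were lost with median-ratio scaling, and that of Rpl39 also without Nlrp3-/- control 1 (0.29) or 2 (0.30) or wild-type control 1 (0.22) or 2 (0.29).

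The interaction term, the Nlrp3-/- difference with LPS+ATP minus the wild-type one, tested whether the falls differed between genotypes. It was called above 0 in 38 members (44.7%) and below 0 in 1, where 14.7% of all genes had a call above and 13.0% below, with a median of 0.22 for members and 0.02 for all genes. It was above 0, called or not, in 77 of the 85 members and in 6786 of the 12622 genes tested. All 38 had fallen in both genotypes, so that a positive term was a smaller fall in Nlrp3-/- cells. With median-ratio scaling 29 were called above and 1 below 0, with a median of 0.19. No member reached an interaction term of at least 1 in either direction with limma, at an adjusted or unadjusted p, where 2.15% of all genes did. Over the fits without 1 library, the count above 0 was between 29 and 42.

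The largest terms were those of Rpl10a (0.91 ± 0.135, adjusted p = 0.000529), Rpl3 (0.69 ± 0.0488, adjusted p = 2.81e-06), Rpl12 (0.52 ± 0.0584, adjusted p = 7.51e-05), Rps2 (0.48 ± 0.0953, adjusted p = 0.0032) and Rpl8 (0.43 ± 0.0664, adjusted p = 0.000713). Rps2, which helps to form the mRNA entry of the small subunit, fell by 0.96 in wild-type cells, from 244, 272 and 271 FPKM to 131, 151 and 123 FPKM. The fall in Nlrp3-/- cells was from 312, 321 and 331 FPKM to 225, 236 and 233 FPKM, a fall of 0.47. Rpl8 fell from 288, 305 and 312 FPKM to 160, 165 and 153 FPKM in wild-type cells and from 306, 337 and 347 FPKM to 233, 235 and 236 FPKM in Nlrp3-/- cells. The stalk gave terms of 0.29 for Rplp0 (adjusted p = 0.000597), 0.27 for Rplp1 (adjusted p = 0.019) and 0.23 for Rplp2 (adjusted p = 0.115), which was called without wild-type control 1 (0.31, adjusted p = 0.0135). The term was called in 24 of the 39 members that have a near copy at 1 FPKM or more and in 14 of the 46 that have none, with medians of 0.25 and 0.16.

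Some members are paralogs of another member. Rpl39l, a paralog of Rpl39 known for its level in the testis, was 0.727, 0.676 and 1.06 FPKM and 1.47, 1.32 and 1.84 FPKM in control and stimulated wild-type cells, and 5.05, 4.55 and 4.62 FPKM and 4.82, 4.79 and 6.04 FPKM in control and stimulated Nlrp3-/- cells. The 6 Nlrp3-/- libraries lay above the 6 wild-type libraries, by 1.66 ± 0.106 in control (adjusted p = 1.75e-07) and 1.29 ± 0.106 with LPS+ATP (adjusted p = 1.73e-06). Its parent Rpl39, which lines the peptide exit tunnel, was 30.4 to 40.3 FPKM in wild-type control and 41.2 to 44.2 FPKM in Nlrp3-/- control. Rpl39l thus stood at 2.35% of the level of Rpl39 in control and 7.93% in stimulated wild-type cells, and at 11.0% and 19.6% in Nlrp3-/- cells.

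The log2 ratio of a paralog to its parent within a library does not depend on scaling. For 4 pairs it was tested in 4 comparisons, giving 16 exact two-sided permutation tests, in which 3 against 3 libraries cannot go below p = 0.1. The Rpl39l/Rpl39 ratio differed in all 4 comparisons without overlap, by 2.24 and 1.31 between genotypes in control and with LPS+ATP and by 1.76 and 0.82 with LPS+ATP in wild-type and Nlrp3-/- cells (each exact p = 0.1, adjusted p = 0.133). Rpl7l1, a relative of Rpl7 found in particles on the way to the large subunit, had a ratio to Rpl7 that was higher with LPS+ATP by 0.69 in wild-type and 0.24 in Nlrp3-/- cells (each exact p = 0.1, adjusted p = 0.133). Rpl7l1 itself was 19.0, 18.2 and 19.6 FPKM in wild-type control and 17.6, 17.4 and 19.4 FPKM with LPS+ATP (-0.06, adjusted p = 0.27), which turned to 0.25 and was called with median-ratio scaling. Rpl22l1, a paralog of the RNA-binding Rpl22, had a ratio to it that was higher by 0.66 with LPS+ATP in Nlrp3-/- cells (exact p = 0.1, adjusted p = 0.133). In wild-type cells that ratio overlapped between groups (0.28, exact p = 0.3, adjusted p = 0.32). Rps27l, a paralog of Rps27 known as a target of p53, stood at 50.7% of Rps27 in wild-type control and 42.2% with LPS+ATP, and at 57.9% and 64.0% in Nlrp3-/- cells. No test of the 16 passed 0.05, at an adjusted or unadjusted p.

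**Figure D4:**
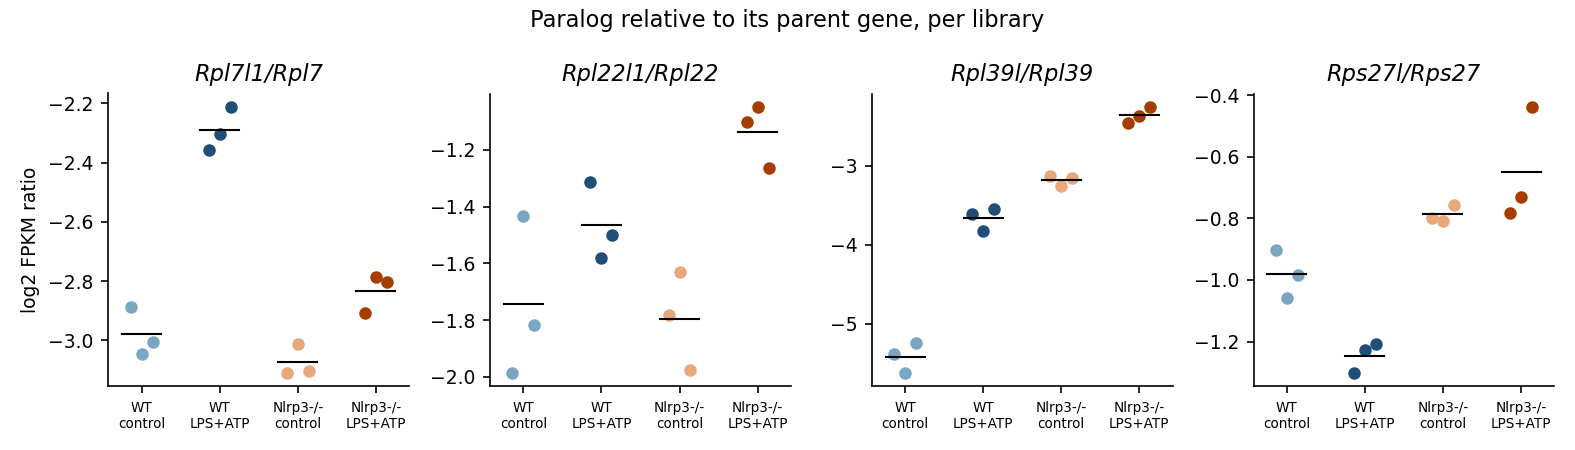
The log2 FPKM ratio of 4 paralogs to their parent genes in each library, with the mean of a group as a line. Rpl39l/Rpl39 separates all 4 groups, and Rpl7l1/Rpl7 is highest in wild-type LPS+ATP.

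Several members share sequence with other rows of the table, and how the authors' counting placed such reads is not given in the sources used here. By blastn of the longest coding transcript against GENCODE M21, at 95% identity over at least 50% of its length, 48 of the 85 members had a near copy, with up to 35 for Rpl7a, and 39 had one at 1 FPKM or more. In 33 members the near copies summed to over 10% of the FPKM of the member itself. Rpl10a-ps1, a processed pseudogene copied from Rpl10a, was at 67.2, 21.7, 79.2 and 40.4 FPKM in control and stimulated wild-type and control and stimulated Nlrp3-/- cells, the means of 3 libraries each. Rpl3-ps1 was at 82.8, 28.4, 83.0 and 47.0 FPKM. The differences of such members and their copies cannot be told apart. With near copies added to each member, 79 members were lower in wild-type and 82 in Nlrp3-/- cells with LPS+ATP, 67 and 77 were higher in Nlrp3-/- cells in control and with LPS+ATP, and 43 had an interaction term above 0. Among the 46 members without a near copy at 1 FPKM, 41 and 44 fell with LPS+ATP, and 35 and 39 were higher in Nlrp3-/- cells, with medians of -0.80, -0.61, 0.25 and 0.47. Median-ratio scaling left 39 and 35 of the 46 lower, and 14 and 34 higher. Without that scaling, 53.1% and 53.8% of all genes were called lower and 33.3% and 35.9% higher in these comparisons. An interaction term above 0 was called in 14.7% of all genes.

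GENCODE M21 gives 4 members a pseudogene type, Rpl6l, Rps3a2 and Rps3a3 as processed pseudogenes and Rps4l as a transcribed processed pseudogene. Rps3a2 and Rps3a3, near copies of Rps3a1, were the members lower in Nlrp3-/- control. Rps3a1 was 358, 366 and 392 FPKM in wild-type control and 517, 495 and 504 FPKM in Nlrp3-/- control (0.44, adjusted p = 1.31e-06), while Rps3a2 was 106, 116 and 124 FPKM and 98.1, 93.4 and 90.3 FPKM (-0.29, adjusted p = 0.00168). Rps3a3 was 4.42, 4.59 and 4.69 FPKM and 2.53, 2.12 and 1.96 FPKM (-0.80, adjusted p = 8.09e-05). The groups did not overlap in any of the 3. Summed with their near copies, all 3 came to 0.28 (adjusted p = 8.13e-05), a rise. Rps4l, a copy related to Rps4x, was 9.62, 11.6 and 9.96 FPKM in wild-type control and 14.4, 17.1 and 17.6 FPKM in Nlrp3-/- control (0.61, adjusted p = 0.000101). Of the 71 pseudogene rows tested, named with -ps, 67 and 64 fell with LPS+ATP in wild-type and Nlrp3-/- cells, with medians of -0.76 and -0.58. Of all genes tested, 53.1% and 53.8% were called lower there.

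Other genes of ribosome synthesis and translation were compared from lists chosen for their function. Of all genes tested, 53.1% were called lower with LPS+ATP in wild-type and 53.8% in Nlrp3-/- cells. Of the ribosomal proteins whose names fall outside the rule, all 5 tested fell in wild-type cells with LPS+ATP (median -0.84) and 4 in Nlrp3-/- cells (median -0.57). In control 1 of the 5 was higher in Nlrp3-/- cells (median 0.12), and with LPS+ATP all 5 were (median 0.39). Of all genes, 33.3% and 35.9% were. Median-ratio scaling turned this to 0 higher and 1 lower in control, and 1 higher and 0 lower with LPS+ATP. Fau, which encodes a ubiquitin-like fusion with a small subunit protein, went from 162 ± 11.0 to 84.2 ± 4.01 FPKM (SD, n = 3) in wild-type cells. All 17 translation factors and related proteins whose mRNAs are known to carry a TOP motif fell in both genotypes (medians -0.71 and -0.52), all 17 were higher in Nlrp3-/- cells with LPS+ATP (median 0.37), and the interaction was called above 0 in 12. Median-ratio scaling left 15 and 10 lower and 12 higher, with 6 interaction terms called. Without that scaling, 35.9% of all genes were higher in Nlrp3-/- cells with LPS+ATP, and 14.7% had an interaction term called above 0. In control 11 of the 17 translation factors were higher in Nlrp3-/- cells (median 0.15), where 33.3% of all genes were. Median-ratio scaling turned these to 4 higher and 5 lower (median 0.003). Eef2, the elongation factor that moves the ribosome along the mRNA, fell by 0.98 in wild-type and by 0.52 in Nlrp3-/- cells, with a term of 0.46, and Eef1a1, which brings aminoacyl-tRNA, by 1.07 and 0.74. Eif4b, a cofactor of the helicase of initiation, fell most of these, by 1.30 and 1.08.

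Ribosome assembly factors and mitochondrial ribosomal proteins were called lower with LPS+ATP in smaller shares than the members. Of 68 ribosome biogenesis factors, 38 were lower and 13 higher in wild-type cells with LPS+ATP, with a median of -0.16 that turned to 0.13 with median-ratio scaling, and 33 were lower and 11 higher in Nlrp3-/- cells, with a median of -0.14 that turned to 0.14. Rcl1 (2.39) and Eif6 (1.07), which takes part in maturation of the large subunit, rose most in wild-type cells and Nop10 (-0.92) fell most. Of the same 68, 50 were higher in Nlrp3-/- cells in control and 54 with LPS+ATP (medians 0.27 and 0.30), where 33.3% and 35.9% of all genes were, and median-ratio scaling left 27 and 32 higher (medians 0.15 and 0.15). Those higher included Dkc1 (0.75 and 0.92), the pseudouridine synthase of ribosomal RNA, and Npm1 (0.92 with LPS+ATP), a nucleolar protein. The interaction was called in 7 (10.3%) above and 4 (5.88%) below 0, where 14.7% and 13.0% of all genes were. Of 78 mitochondrial ribosomal proteins, 43 were lower and 11 higher in wild-type cells (median -0.27, or -0.01 with median-ratio scaling) and 38 and 7 in Nlrp3-/- cells (median -0.19, or 0.07), and 55.1% lower in wild-type cells was near the 53.1% of all genes. In control and with LPS+ATP, 16 and 22 of them were higher and 3 and 6 lower in Nlrp3-/- cells, which median-ratio scaling turned to 2 and 5 higher and 14 and 13 lower. Their interaction term was called above 0 in 5 (6.41%) and below 0 in 2 (2.56%), against 14.7% and 13.0% of all genes.

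**Figure D5:**
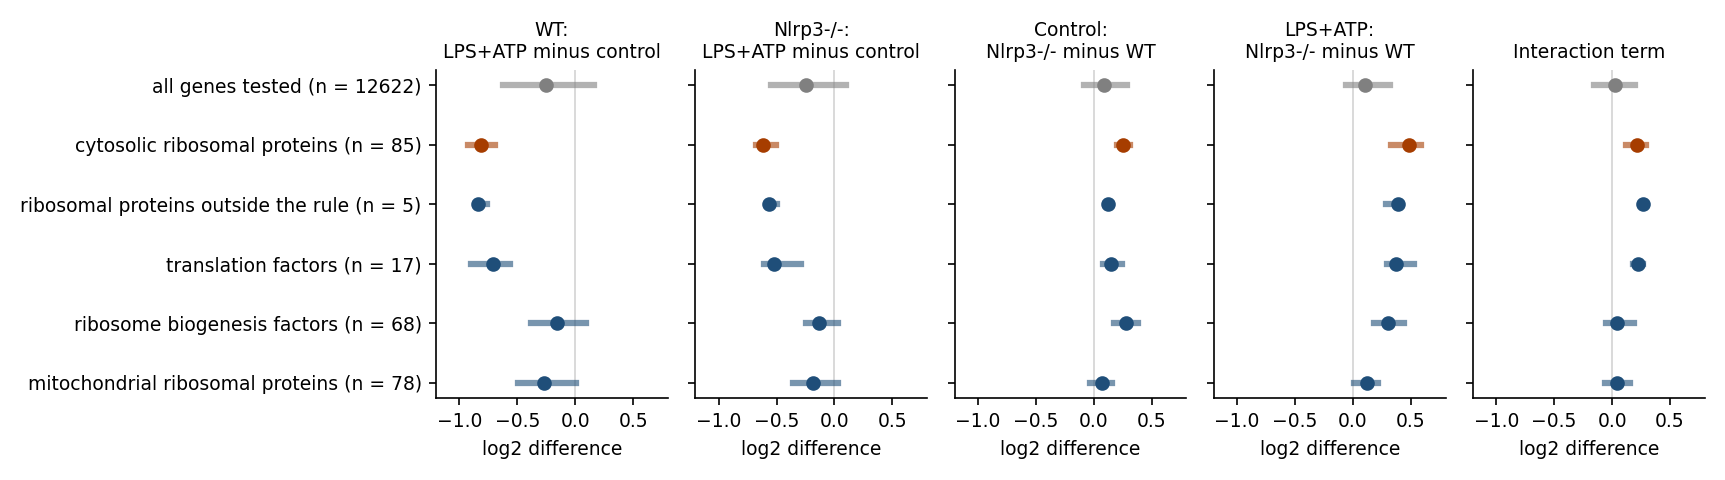
Median (point) and interquartile range (bar) of the log2(FPKM + 1) difference in each comparison, for all genes tested, the 85 members and 4 related lists. The members and the translation factors lie below all genes with LPS+ATP, and the ribosome biogenesis factors lie among all genes there but above them in both genotype comparisons.

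Of 30 known regulators of ribosome synthesis tested, 14 were higher and 13 lower with LPS+ATP in wild-type cells, where 23.3% of all genes were higher and 53.1% lower, and 13 and 10 in Nlrp3-/- cells, where 20.6% and 53.8% were. With median-ratio scaling 17 were higher and 7 lower in wild-type cells (median 0.35 in place of 0.06) and 18 and 5 in Nlrp3-/- cells (median 0.32 in place of 0.10). Mxd4, an antagonist of MYC at its binding sites, fell by 2.38 and 1.85. Mdm2, the ubiquitin ligase of p53, to which several ribosomal proteins bind, rose by 2.00 in wild-type cells, and the interaction term of Mdm2 was -0.85. Between genotypes, Ddit4, an inhibitor of mTORC1, and Myc, a transcription factor of ribosome synthesis genes, were higher in Nlrp3-/- cells, by 1.68 and 0.99 in control and by 1.27 and 1.20 with LPS+ATP. The list as a whole had medians of 0.04 and 0.05 between genotypes, which turned to -0.10 and -0.10 with median-ratio scaling.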

How the data were processed

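RNA of BMDMs was measured in 12 libraries of 4 groups, assigned from the sample labels, and the authors deposited 1 table of FPKM per gene and library. The aligner, counter and annotation of the table are not given in the sources used here; the submitters' processing notes name GRCm39 and DESeq2 1.24.0 without a role. Depth in reads is unknown, relative depth read from the steps of low values ran from 1.00 to 1.22, and 0 columns were left unused. Members and lists were chosen with earlier results of these data known. Genes reaching 1 FPKM in 3 or more libraries entered a limma 3.58.1 fit of log2(FPKM + 1) (R 4.3.3; 4 group means, 8 residual degrees of freedom, variance trend) with Benjamini-Hochberg adjustment over 12622 genes, in 5 comparisons including the interaction. This scale understates changes of low genes. Errors of differences are SEs. The fit was tested on simulated data. Genes named were paralogs and parents, stalk and X-linked members, the 3 highest and lowest, those at the filter, the 5 largest called rises and falls per comparison without overlap, and of each list some of the 3 largest called differences; Rps10, Rps25, Rpl29, Gm9385, Gm12254, Rpl10a-ps1 and Rpl3-ps1 were chosen after their values were seen, and 1 gene that the rule names is not reported here. Replicate numbers were not taken to pair libraries, as no same-number correlation of deviations passed 0.0528. With 3 libraries per group that cannot show whether same-numbered libraries shared a mouse, culture or batch. Alternatives were other pseudocounts, filters, scalings, variance models, a replicate block and leaving out each library; near copies summed were added after seeing the data. Near copies were found with blastn 2.17.0+. Python 3.11.15, pandas 2.3.3, numpy 2.4.6, scipy 1.17.1 and matplotlib 3.10.9 were used.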

Additional observations from a re-analysis of the deposited data

Results flagged for a closer look

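The difference with LPS+ATP differed between the genotypes in 17 of the members named, by the interaction term of the limma fit (Nlrp3-/- minus wild type, log2(FPKM + 1) scale, Benjamini-Hochberg adjusted p under 0.05 over all genes tested). The terms were 0.91 for Rpl10a, 0.69 for Rpl3, 0.52 for Rpl12, 0.48 for Rps2, 0.43 for Rpl8, 0.43 for Rpsa, 0.41 for Rpl13, 0.34 for Rps15, 0.32 for Rps16, 0.29 for Rplp0, 0.27 for Rplp1, 0.26 for Rpl7, 0.25 for Rps4x, 0.24 for Rps3a1, 0.24 for Rpl10, 0.24 for Rps3a2 and 0.18 for Rpl4. In all 17 the fall was larger in wild-type cells. Of all genes tested, 14.7% had a term called above and 13.0% below 0. Rpl10a, Rpl3, Rpl12, Rps2 and Rpl8 were named in part for their large interaction terms, so the 17 give no share of the members. Rps3a2 stood at the limit and lost its call in 9 of the 12 fits that left out 1 library, and the other 16 kept theirs in those fits.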

How the results depend on the processing

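Members called higher with LPS+ATP in wild-type cells went from 2 to 5 with median-ratio and 4 with upper-quartile scaling, and to 1 with a filter of 5 FPKM. In Nlrp3-/- cells the 2 members higher became 1 with no filter, no trend, a pseudocount of 0.1, the compared groups alone, the replicate block and scaling without the 20 highest genes. Between genotypes in control, median-ratio scaling gave 26 higher and 4 lower, and the 2 lower became 1 with the filter of 5 FPKM and 0 with near copies summed. With LPS+ATP the 2 lower became 4 with median-ratio scaling and 1 with TPM, no filter, the filter of 5 FPKM, no trend, scaling to other genes and near copies summed. The 1 negative interaction became 2 with a pseudocount of 0.1, upper-quartile scaling and the replicate block, and 3 with unadjusted p. Without 1 library the counts ranged from 2 to 2 higher and 77 to 79 lower (wild type), 1 to 2 and 79 to 81 (Nlrp3-/-), 54 to 70 and 2 to 2 (genotypes in control), 70 to 76 and 1 to 2 (genotypes with LPS+ATP), and 29 to 42 and 1 to 2 (interaction). The summed share in control and stimulated wild-type and control and stimulated Nlrp3-/- cells was 4.79%, 2.59%, 5.47% and 3.54% without the 20 highest genes in the total, 3.09%, 1.80%, 3.66% and 2.52% without the pair of highest members, and 4.16%, 2.40%, 4.94% and 3.39% with pseudogene rows added.

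Directions reversed with median-ratio scaling for Rpl7l1 (0.25) with LPS+ATP in wild-type cells, Rpl22l1 (0.023) and Rpl7l1 (0.036) in Nlrp3-/- cells, Rpl8 (-0.026) and Rpl3 (-0.12) between genotypes in control, and Rpl24 (-0.039) between genotypes with LPS+ATP. Summing near copies reversed Rps3a2 and Rps3a3 between genotypes in control (0.28) and with LPS+ATP (0.53). The cause was not tested. The replicate numbers were not taken to pair libraries. With the replicate block 79 and 81 members were lower with LPS+ATP, 66 and 75 higher in Nlrp3-/- cells, and 39 had an interaction term above 0. FPKM gives no depth, so counting error could not be stated, and the precision of low members such as Rpl39l and Rps3a3 is unknown.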
